A study of Mus musculus with 5 samples.

Results

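Neutrophil precursors with high Fcnb transcript counts were examined in the bone marrow of 5 C57BL/6J mice during leukemia progression, with 1 mouse each at Day 0, Day 3, Day 6, Day 9 and Day 12. Every mouse, the Day 0 animal included, was 8 weeks old, was not irradiated and had received 1000 BCR-ABL1 pre-B ALL cells by tail vein injection. Day 0 was taken directly after transplantation and is therefore the reference for the 4 later days rather than an untreated mouse. Flushed marrow and crushed, enzyme-digested bone were pooled, treated with red cell lysis buffer, cryopreserved and profiled with the 10x Genomics 3' v2 chemistry. Because each day is 1 mouse and 1 library, a difference between days and a difference between mice cannot be told apart, and no test between days was possible.

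A barcode was taken as an Fcnb-high precursor when it held at least 500 unique molecular identifiers (UMIs), at most 10% of them from mitochondrial genes, at least 3 Fcnb UMIs, at least 1 Cebpe UMI, fewer than 5 UMIs of Elane and Ms4a3 together and no Csf1r UMI. The rule selected 1477 of the 29679 barcodes that passed the UMI and mitochondrial limits. From Day 0 to Day 12 the mice held 309, 310, 254, 305 and 299 precursors. These were 4.94% (95% confidence interval 4.41 to 5.50%), 6.37% (5.70 to 7.09%), 4.20% (3.71 to 4.74%), 4.39% (3.92 to 4.90%) and 5.37% (4.80 to 6.00%) of the passing barcodes of each library. All intervals given here are exact, binomial for shares and Poisson or conditional binomial for summed counts, and they cover counting error only and not the difference between animals. Day 3 had the highest share and Days 6 and 9 the lowest. The order was not the same when only barcodes with at least 3000 UMIs were taken and each was thinned to 3000. The rule then kept 132, 113, 108, 130 and 119 precursors. These were 4.09%, 3.5%, 3.06%, 3.24% and 3.63% of those barcodes, with Day 0 highest. The denominator changed together with the depth, so their parts in the new order were not told apart. Median precursor depth was greatest at Day 3.

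Neutrophils mature in the marrow through promyelocytes, myelocytes and metamyelocytes, and they fill their granules in that order. Primary granules, with myeloperoxidase and the serine proteases, are loaded first. Secondary granules, with lactoferrin and cathelicidin, follow, and tertiary granules, with gelatinase, come later. Division ends around the myelocyte stage. C/EBPε, encoded by Cebpe, is the transcription factor required for secondary granule genes. Fcnb encodes ficolin B, a pattern-recognition lectin made by immature myeloid cells, Chil3 encodes the chitinase-like protein Ym1, and Serpinb1a encodes an inhibitor of neutrophil serine proteases.

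The genes behind the rule are given as a description only, because Fcnb and Cebpe chose the cells. Fcnb lies on the minus strand at chr2:28076378-28084885, Cebpe on the minus strand at chr14:54710360-54712174, Chil3 on the minus strand at chr3:106147554-106167564 and Serpinb1a on the minus strand at chr13:32842092-32851185 (GRCm38). Expression is given as a level, the summed UMIs of a gene over the precursors of a mouse per 10000 of all their UMIs. From Day 0 to Day 12 the Fcnb level was 7.12, 6.19, 6.39, 6.65 and 7.22 and the Cebpe level was 4.79, 5.80, 5.85, 5.39 and 4.15. Both stayed within a narrow range over the 5 mice. The Chil3 level was 62.7, 71.3, 77.7, 66.8 and 63.6, and a Chil3 UMI was in 100% of precursors on every day. A Serpinb1a UMI was found in 95.8% to 98.3% of precursors, at a level of 6.21, 5.41, 4.96, 5.18 and 6.59. In barcodes of the B lineage, which should lack both genes, a Serpinb1a UMI was in 27.0% to 30.3% and a Chil3 UMI in 42.7% to 64.5% of barcodes. Median depth was 9101 to 11291.5 UMIs in precursors and 1809.5 to 3501 UMIs in the B lineage barcodes. After every cell was thinned to 3000 UMIs, the Serpinb1a share was 73.5% to 82.4% in precursors and 15.9% to 29.3% in B lineage barcodes.

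The promoters of Fcnb and of secondary granule genes are shown because Fcnb is in the rule and secondary granule genes, which are not, were abundant in the cells on every day. The windows are the 250 bases before the RefSeq start of each gene on GRCm38.p6, printed 5′ to 3′ on the strand of the gene, and lie at chr2:28084879-28085128 on the minus strand for Fcnb, at chr9:111019042-111019291 on the plus strand for Ltf, at chr9:110419558-110419807 on the plus strand for Ngp and at chr2:32387740-32387989 on the minus strand for Lcn2. Capitals mark TTGCNNAA, a short form of the C/EBP motif that was searched on both strands.
Fcnb: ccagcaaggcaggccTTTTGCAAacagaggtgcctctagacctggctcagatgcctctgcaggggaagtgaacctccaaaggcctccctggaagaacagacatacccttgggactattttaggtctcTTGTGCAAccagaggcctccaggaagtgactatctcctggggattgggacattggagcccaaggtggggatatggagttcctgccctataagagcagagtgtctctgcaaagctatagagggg
Ltf: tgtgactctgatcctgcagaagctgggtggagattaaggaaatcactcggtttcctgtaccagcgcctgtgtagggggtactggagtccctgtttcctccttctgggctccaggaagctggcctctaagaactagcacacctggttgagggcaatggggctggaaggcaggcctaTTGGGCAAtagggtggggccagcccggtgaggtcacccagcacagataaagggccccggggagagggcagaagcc
Ngp: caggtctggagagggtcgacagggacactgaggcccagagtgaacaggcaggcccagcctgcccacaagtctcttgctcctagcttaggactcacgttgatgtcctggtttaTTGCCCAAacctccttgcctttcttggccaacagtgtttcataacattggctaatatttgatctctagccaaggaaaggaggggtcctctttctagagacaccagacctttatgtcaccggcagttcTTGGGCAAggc
Lcn2: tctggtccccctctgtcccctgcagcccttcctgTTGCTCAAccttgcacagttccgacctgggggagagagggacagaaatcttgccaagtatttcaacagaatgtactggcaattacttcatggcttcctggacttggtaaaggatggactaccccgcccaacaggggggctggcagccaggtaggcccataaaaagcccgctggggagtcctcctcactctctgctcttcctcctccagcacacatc
Fcnb and Ngp each held 2 matches and Ltf and Lcn2 1 each, while the windows of Chil3 and Camp held none. The motif was found in 3142 of 32851 promoter windows of this length, or 9.56%. Of Fcnb and 16 secondary granule genes, 15 were matched to a window, and 6 of these, or 40%, held it. A looser form, TTNCNNAA, was in 36.8% of all windows and in 11 of the 15, and the palindrome TTGCGCAA was in 0.164% of all windows and in 0 of the 15. The motif was picked after several had been looked at, and a match is a description of the letters and not of a bound site. Cebpe, Serpinb1a and Mmp9 had no entry in the sequence table used.

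The label of the cells was checked against markers. Granule genes dominated the precursors, and the 16 secondary granule genes together took 1470 to 1550 of every 10000 UMIs. Camp, which encodes cathelicidin, had a level of 711, 693, 683, 713 and 742 from Day 0 to Day 12. Ngp, neutrophilic granule protein, had a level of 437, 463, 477, 442 and 402. Lcn2, the siderophore-binding lipocalin 2, had a level of 135, 137, 149, 127 and 104, with the lowest value at Day 12. The calprotectin genes S100a8 and S100a9 had levels of 1962 to 2578 and 1479 to 1622. Mpo and Prtn3, of the primary granules, stood at levels of only 0.218 to 0.395 and 0.343 to 0.725. Markers of monocytes other than Ly6c2 were low, since the list of 9 reached 10.1 to 14.2, of which Ly6c2 alone gave 9.14 to 12.5. Macrophage, eosinophil, basophil and megakaryocyte lists had between 0 and 4 of their 4 to 6 genes without a single UMI. In that order they summed to 0.103 to 0.320, 0.00320 to 0.0935, 0.00961 to 1.09 and 0.0128 to 0.0324. Secondary granule genes thus far exceeded primary granule genes and the markers of other lineages, and the name neutrophil precursor was kept. The rule itself limits Elane, Ms4a3 and Csf1r. Low primary granule and monocyte values can therefore follow from the selection and do not check the name.

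A few selected barcodes did not share this profile. Precursors with an Ltf level under 10 numbered 9, 7, 1, 0 and 0 from Day 0 to Day 12, and 1 further barcode at Day 9 had no Ltf UMI. At Day 3 the 7 low-Ltf barcodes had a Camp level of 54.4 and a ribosomal protein gene level of 1983, against 734 and 599 in precursors with an Ltf level of 50 or more. At Day 0 the 9 low-Ltf barcodes still had a Camp level of 490. B lineage barcodes were defined by Cd79a and Cd79b UMIs, and 1, 6, 8, 3 and 0 precursors also met that definition. The doublet caller Scrublet marked 10 of the precursors at Day 0 and 0 at the other days, but it marked no more than 3 barcodes in any library after Day 0 and did not work there. No precursor barcode was shared between libraries, and the mitochondrial limit removed 2, 3, 0, 2 and 0 candidates.

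**Figure D1:**
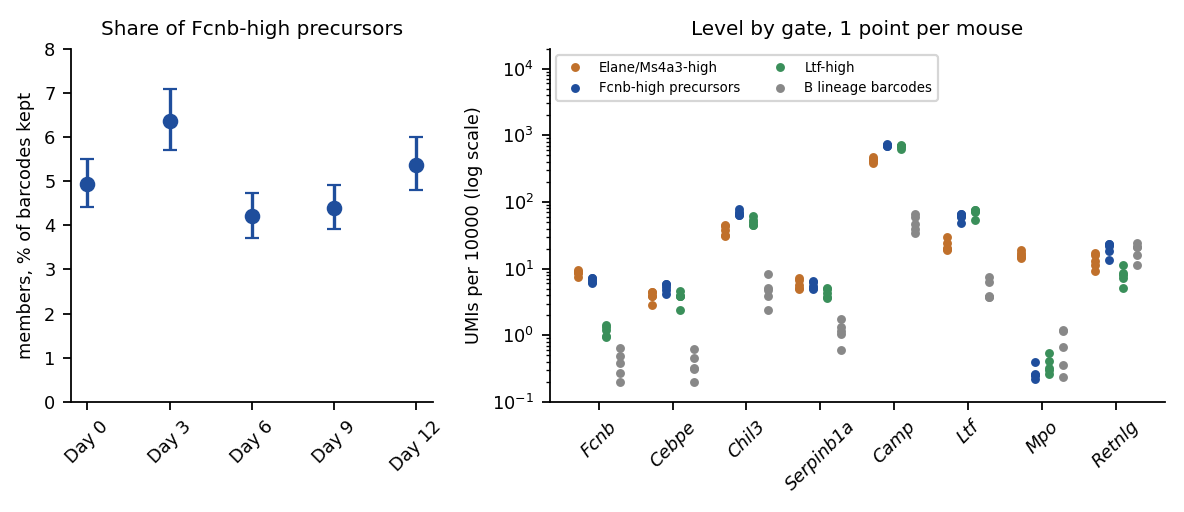
Left, share of Fcnb-high precursors among passing barcodes (percent) by day, 1 mouse per day, with exact 95% intervals for counting error. Day 3 is highest at 6.37% and Day 6 lowest at 4.20%. Among only the barcodes with at least 3000 UMIs, thinned to 3000, Day 0 (4.09%) and not Day 3 (3.5%) was highest. Right, levels of 8 genes (UMIs per 10000, log scale) in Elane/Ms4a3-high progenitors, Fcnb-high precursors, Ltf-high neutrophils and B lineage barcodes, 1 point per mouse, where Mpo is 0.218 to 0.395 in precursors and far higher in the progenitors.

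The cells just inside and just outside the limits of the rule differed in part in granule content. The 350 precursors with exactly 3 Fcnb UMIs had a Chil3 level of 56.0 to 66.9 over the days, and the 384 barcodes with 2 had 47.4 to 65.0, which was lower in each of the 5 mice. Their Ltf levels were 53.9 to 68.2 and 54.2 to 69.9. At the Cebpe limit, 143 precursors had 1 UMI and 93 otherwise eligible barcodes had 0, with Chil3 levels of 44.7 to 79.8 and 40.8 to 68.1. The Ltf level was 36.7, 54.9, 83.9, 64.0 and 65.0 with 1 Cebpe UMI and 28.3, 55.4, 30.1, 47.4 and 54.0 with 0, lower in 4 of 5 mice. At the upper limit 175 precursors had 4 UMIs of Elane and Ms4a3, 111 excluded barcodes had 5, and these had a Chil3 level of 64.1 to 84.8. A single Csf1r UMI excluded 81 barcodes, with a Chil3 level of 42.9 to 84.9.

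To place the precursors in the neutrophil series, their summed counts were compared within each mouse with 3 other gates. Elane/Ms4a3-high progenitors had at least 5 UMIs of both genes together, and there were 299, 191, 222, 324 and 273 of them. This gate set no limit on Fcnb or Cebpe. Its median depth was 13552 to 15567 UMIs, against 9101 to 11291.5 in precursors, and the part of depth in its cell numbers was not tested. Ltf-high neutrophils had at least 5 Ltf UMIs, fewer than 3 Fcnb and fewer than 5 Retnlg UMIs, and numbered 254, 75, 69, 126 and 46. Retnlg-high neutrophils had at least 5 Retnlg and fewer than 5 Ltf UMIs and numbered 1451, 1661, 2202, 2561 and 2236. For every Elane/Ms4a3-high progenitor there were 1.03, 1.62, 1.14, 0.941 and 1.10 precursors from Day 0 to Day 12, so the Day 3 mouse had the most precursors per progenitor. The precursors were 13.4%, 13.9%, 9.25%, 9.20% and 10.5% of the cells of the 4 gates. Differences were tested with edgeR on 20 sums with the mouse as a block. A call is a mean difference over the 5 mice, which a single mouse need not show. The gates cut through a continuous series by genes of that series, so that genes expressed together with a gate gene must follow it. For that reason gate genes were left out of all counts, and the differences place the cells rather than test an independent property.

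Against Elane/Ms4a3-high progenitors, the precursors carried more secondary and less primary granule RNA. All 14 tested secondary granule genes were higher in precursors and 5 of the 6 primary granule genes were lower. Mpo, myeloperoxidase, had a level of 0.278 ± 0.068 (SD, n = 5 mice) in precursors and 16.3 ± 1.9 in progenitors (log2 difference −5.44, edgeR adjusted p = 1.3e-30). Prtn3, proteinase 3, was lower by the same test (log2 difference −4.74, edgeR adjusted p = 9.7e-28), as was Ctsg, cathepsin G (−5.34, edgeR adjusted p = 1.2e-28). Lcn2 was higher, at 131 ± 17 against 52.7 ± 9.1 (log2 difference 1.77, edgeR adjusted p = 5.8e-13). Camp differed less, at 708 ± 23 against 424 ± 33 (log2 difference 1.20, edgeR adjusted p = 1.5e-08). Ngp stood at 444 ± 29 against 215 ± 29 (log2 difference 1.5). These 6 genes come from the granule lists, and the shares of all genes called in this comparison follow below.

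Over all 9544 tested genes, 2316 (24.3%) were higher and 2307 (24.2%) lower in precursors than in Elane/Ms4a3-high progenitors, and these shares are the background for the lists. The split depends on the scale. TMM factors set the median gene to a log2 difference of 0.02, whereas with total UMIs as the scale the median was −0.44 and 696 genes were higher and 4878 lower. With the size factors of DESeq2 in edgeR, 1716 were higher and 2910 lower. The 14 secondary granule genes and the 6 genes of the NADPH oxidase, the enzyme that makes superoxide, were higher on both the TMM and the total UMI scale. The oxidase subunit Cybb had a level of 7.36 ± 1.5 in precursors and 3.81 ± 0.69 in progenitors (log2 difference 1.4, edgeR adjusted p = 1e-12).

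The 10 genes with the largest increases over Elane/Ms4a3-high progenitors were St3gal5, Ly6g, Fpr2, Ifitm6, Plbd1, AA467197, Pirb, Zmpste24, Mmp9 and Lcn2. St3gal5, a sialyltransferase that makes the ganglioside GM3, had the largest log2 difference at 2.70, with a level of 1.68 ± 0.37 against 0.352 ± 0.037 (edgeR adjusted p = 1.6e-19). Ly6g, the surface antigen used to identify mouse neutrophils, followed at 2.52, with a level of 4.65 ± 0.91 against 1.10 ± 0.12. Fpr2, a formyl peptide receptor, differed by 2.47, and Ifitm6 by 2.40. Mmp9, the tertiary granule gelatinase, was at 1.41 ± 0.35 against 0.572 ± 0.18 (log2 difference 1.77, edgeR adjusted p = 9.8e-13). Of 15 late neutrophil genes, 13 were higher and 0 lower with TMM, and 10 higher and 1, Ifitm1, lower with total UMIs.

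The largest decreases besides the proteases included Gstm1, a glutathione transferase, with a log2 difference of −3.26, and Nkg7, a granule membrane protein, with −3.04. Mif, a cytokine, differed by −2.99. Prg2 and Mcpt8, of eosinophils and basophils, were also among the 10 largest decreases, at −5.96 and −2.69. The Prg2 level in the Elane/Ms4a3-high gate was 0.00458, 6.36, 6.23, 1.30 and 0.0178 from Day 0 to Day 12, and it stood above 1 at Days 3, 6 and 9. In precursors the eosinophil list summed to at most 0.094.

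Among 18 transcription factors, gate genes aside, 8 were higher and 7 lower than in Elane/Ms4a3-high progenitors, and 3 higher and 10 lower with total UMIs. Cebpa, which starts the granulocyte program, was lower (log2 difference −2.21, edgeR adjusted p = 2e-13), as were Myc (−2.51), Irf8 (−1.65), Myb (−1.37) and Gfi1 (−0.53). Ets1 (1.11) and Id2 (0.87) were higher, and these 7 kept their direction and their call with total UMIs. Spi1, encoding PU.1, depended on the scale, with a log2 difference of 0.47 that was called with TMM and 0.02 that was not called with total UMIs.

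Genes of protein synthesis were lower in precursors. Of 82 ribosomal protein genes, 80 were lower and 1, Rpl3l, higher than in Elane/Ms4a3-high progenitors, with a median log2 difference of −1.13, and 81 were lower with total UMIs. Rpl32 had a level of 14.4 ± 1.6 in precursors and 50.8 ± 4.7 in progenitors. Of 15 ribosome biogenesis genes, 14 were lower on both scales, among them Npm1 (−1.91) and Ncl (−1.31). Of 14 endoplasmic reticulum genes, 12 were lower and 0 higher, with Calr, calreticulin, at −2.44. Of 8 stem and progenitor genes, 7 were lower, including Cd34 at −3.77 and Kit at −1.04.

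**Figure D2:**
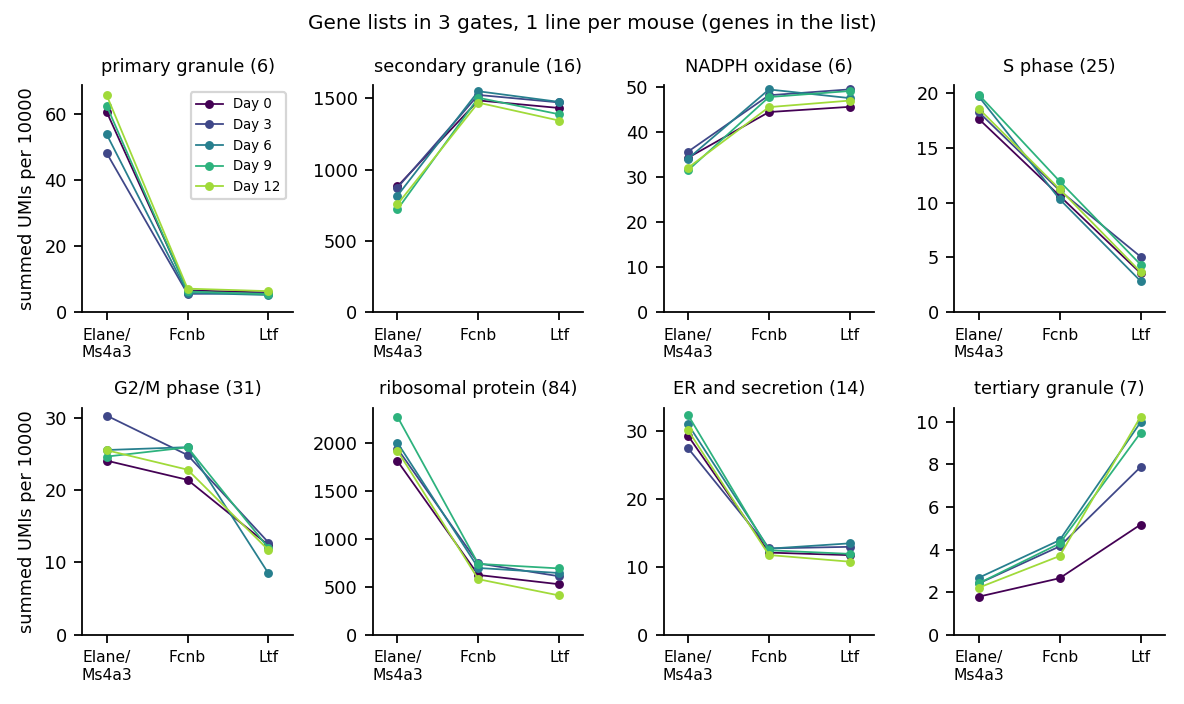
Summed levels of 8 gene lists (UMIs per 10000, linear axes from 0) in Elane/Ms4a3-high progenitors, Fcnb-high precursors and Ltf-high neutrophils, with 1 line per mouse, days told apart by colour and the number of genes in parentheses. Primary granule genes are high in the progenitors alone, secondary granule genes reach 1470 to 1550 in precursors, and the S phase and G2/M lists are lower in Ltf-high neutrophils than in precursors in all 5 mice.

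Replication genes and mitosis genes behaved differently against Elane/Ms4a3-high progenitors. Of 25 S phase genes, 15 were lower and 1, Ccne2, higher, with a median of −0.45, and with total UMIs 24 were lower and 0 higher. The helicase subunits Mcm2, Mcm5, Mcm6 and Mcm7 had log2 differences of −0.88, −0.56, −0.85 and −0.57. Of 31 G2/M genes, 18 were higher and 0 lower with TMM (median 0.31), but 0 were higher and 5 lower with total UMIs (median −0.15), so no direction can be given for this list. Mki67, the proliferation antigen, had a level of 1.23 ± 0.27 against 1.15 ± 0.21, was higher in 3 of 5 mice and had a TMM log2 difference of 0.55. Top2a was at 1.60 ± 0.18 against 1.73 ± 0.26 and higher in only 1 of 5 mice.

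Counted per cell at equal depth, cycling genes were common in precursors. After thinning to 3000 UMIs, at least 5 UMIs of 56 S and G2/M genes were found in 66.3% (60.7 to 71.6%), 63.3% (57.7 to 68.7%), 60.9% (54.6 to 66.9%), 68.9% (63.3 to 74.0%) and 66.2% (60.6 to 71.6%) of precursors from Day 0 to Day 12. The shares were 92.5%, 91.5%, 91.4%, 94.1% and 96.7% in Elane/Ms4a3-high progenitors and 25.7%, 17.1%, 14.6%, 21.1% and 22.2% in Ltf-high neutrophils. In each mouse the precursors lay between the other gates, and the intervals of the 3 gates did not overlap. Thinning left 306, 308, 253, 305 and 299 precursors, and 187, 41, 48, 76 and 18 of the 254, 75, 69, 126 and 46 Ltf-high neutrophils, whose interval at Day 12 was therefore wide (6.41 to 47.6%). In precursors, unthinned shares were 76.4%, 74.5%, 75.6%, 79.7% and 75.6%. No cell cycle phase was assigned.

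**Figure D3:**
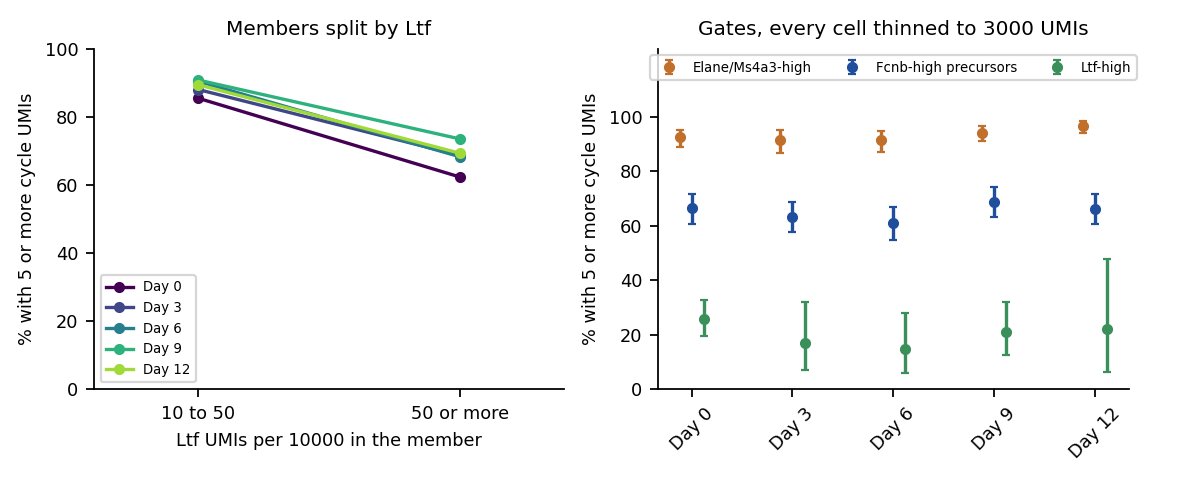
Share of cells (percent) with at least 5 UMIs of 56 cell cycle genes. Left, precursors split by their Ltf level, without thinning and with 1 line per mouse, where each line goes down by 17.3 to 23.1 points to the Ltf-rich class. Right, 3 gates by day after thinning to 3000 UMIs, with exact 95% intervals for counting error, where precursors lie at 60.9% to 68.9%, below Elane/Ms4a3-high progenitors at 91.4% to 96.7% and above Ltf-high neutrophils at 14.6% to 25.7%.

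Against Ltf-high neutrophils of this gate, cell cycle genes were mostly higher in precursors. The Retnlg limit kept only 570 of the 7332 cells that met the other limits of the gate. Without it the median log2 differences were 1.06 for S phase and 1.26 for G2/M genes. Those of late neutrophil and tertiary granule genes were then −1.53 and −1.55. The counts that follow hold for the gate with the limit. Of 25 S phase genes, 23 were higher in precursors and 0 lower (median log2 difference 1.63), and of 31 G2/M genes, 23 were higher and 0 lower (median 1.05), where the background over 9544 genes was 7.66% higher (731 genes) and 1.6% lower (153 genes). With total UMIs, 22 S phase and 23 G2/M genes were higher, against 596 higher and 222 lower genes overall. With DESeq2 size factors in edgeR, 489 genes were higher and 262 lower. Rrm2, a subunit of ribonucleotide reductase, had a level of 1.60 ± 0.047 in precursors and 0.474 ± 0.20 in Ltf-high neutrophils (log2 difference 1.79, edgeR adjusted p = 3.6e-09). Pcna, the replication clamp, had 1.09 ± 0.15 against 0.373 ± 0.15 (log2 difference 1.73, edgeR adjusted p = 1.5e-08). Hist1h2ap (2.03), Tuba1b (1.59), Top2a (1.21) and Mki67 (1.16) were higher too, each in all 5 mice. Ribosomal protein genes were higher in 44 of 82 cases and lower in 0, with a median of 0.37. Without the Retnlg limit 0 of 83 were higher and 12 lower, with a median of −0.07, so this direction depends on the limit.

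Secondary granule genes, in contrast, were mostly not told apart from those of Ltf-high neutrophils. Of 14 genes, 1 was higher (Chil3, log2 difference 0.57) and 1 lower (Mmp8, −1.65), and 12 were not called. Camp differed by 0.19 (edgeR adjusted p = 0.48), Ngp by 0.27 (edgeR adjusted p = 0.27) and Lcn2 by 0.28 (edgeR adjusted p = 0.23). Mmp8, neutrophil collagenase, stood at 0.899 ± 0.25 against 3.38 ± 1.7, and Mmp9 at 1.41 ± 0.35 against 4.91 ± 1.5 (log2 difference −1.62, edgeR adjusted p = 6.2e-10). Ly6g was lower as well, at 4.65 ± 0.91 against 10.1 ± 1.4 (log2 difference −0.99, edgeR adjusted p = 1.9e-06), as was Fpr2 (−0.82). Ly6d was also called lower, at −1.85, but was lower in only 3 of 5 mice by level. None of the 6 NADPH oxidase genes was called in this gate, while without the Retnlg limit 2 were lower in precursors and 0 higher.

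The Ltf-high gate was shallower, with a median of 2502.5 to 4441 UMIs per cell against 9101 to 11291.5 in precursors. Only cells of 5000 to 10000 UMIs were therefore compared as well, without the Retnlg limit, in a comparison chosen after seeing the data. It used 104 to 178 precursors and 499 to 537 Ltf-high neutrophils per mouse. S phase genes stayed higher, with 23 of 25, and so did G2/M genes, with 26 of 31. All 6 tertiary granule genes, all 14 late neutrophil genes and 13 of 14 retention and chemotaxis genes were lower in precursors, where 12% of 7623 genes were higher and 17.3% lower. Of the secondary granule genes 2 were higher and 7 lower. Of 6 NADPH oxidase genes 0 were higher and 4 lower, and of 82 ribosomal protein genes 29 were higher and 4 lower. Depth and the Retnlg limit were changed together here. With the Retnlg limit dropped and no depth window, where 15.9% of 10033 genes were higher and 24.2% lower, all 6 tertiary granule genes and 14 of 15 late neutrophil genes were already lower, and of the secondary granule genes 3 were higher and 1 lower. In the cells of 5000 to 10000 UMIs the log2 difference of Mmp8 was −3.45, that of Mmp9 −2.50 and that of Ly6g −1.28. AP-1 genes, which were not called in the first comparison, were lower in 6 of 7 cases.

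Retnlg-high neutrophils stood farthest from the precursors. Of 9544 genes, 2521 (26.4%) were higher and 3421 (35.8%) lower in precursors, and with total UMIs 873 were higher and 6749 lower. Camp had a level of 708 ± 23 in precursors and 35.1 ± 6.7 in Retnlg-high neutrophils (log2 difference 4.95, edgeR adjusted p = 2.4e-24), and 13 of 14 secondary granule genes were higher. Mmp8 was the exception, with 0.899 ± 0.25 against 6.30 ± 0.50 (log2 difference −2.27). All 15 late neutrophil genes were lower in precursors, among them Cxcr2, the chemokine receptor for marrow egress, at −2.21, Csf3r, the G-CSF receptor, at −1.76, and Il1b at −3.16. All 31 G2/M genes were higher, and 30 with total UMIs. Of 25 S phase genes, 18 were higher and 2 lower with TMM. With total UMIs 8 were higher and 7 lower (median −0.07), so no direction can be given for the S phase list. This gate was not pure, since B lineage markers summed to 2.77 to 14.8 and erythroid markers to 0.133 to 21.5 per 10000 in it, and haemoglobin genes were among its largest differences.

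Among the precursors themselves, Ltf content and cell cycle genes varied in opposite directions. An Ltf level of 50 or more was found in 39.5%, 71.0%, 66.9%, 64.3% and 68.6% of precursors from Day 0 to Day 12, so Day 0 stood apart with fewer Ltf-rich cells. At least 5 cycle UMIs, without thinning, were present in 85.4%, 88.0%, 90.4%, 90.7% and 89.4% of precursors with an Ltf level of 10 to 50, and in 62.3%, 68.6%, 68.2%, 73.5% and 69.3% of those with 50 or more. The share was thus lower in the Ltf-rich cells of every mouse, by 17.3 to 23.1 percentage points. Splitting by Camp and Ngp gave differences of −12 to −24.5 points. Median depth in the lower Ltf class was 9271.5 UMIs and in the upper class 10513 at Day 0, so the class with fewer cycle UMIs was not the shallower one.

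Lcn2 and Chil3 were higher in the upper Ltf class of every mouse. The Lcn2 level was 118, 106, 119, 103 and 87.5 in the lower Ltf class and 162, 153, 165, 141 and 112 in the upper. The Chil3 level was 53.9 to 60.7 in the lower class and 67.2 to 86.3 in the upper. The Camp level was 719, 631, 645, 676 and 746 in the lower class and 715, 734, 705, 736 and 740 in the upper, so it was not higher in the upper class at Days 0 and 12. At Day 3 the lower class also had a basophil and mast cell list sum of 3.73 and a B list sum of 3.47, against 0.123 and 0.749 in the upper. Across cells within a mouse, Pearson's r of Ltf with Lcn2 was 0.54, 0.59, 0.52, 0.47 and 0.35, that of Ltf with Camp was 0.03, 0.32, 0.25, 0.26 and −0.09, and that of Ltf with the cycle genes was −0.22, −0.20, −0.15, −0.14 and −0.21, over 306, 308, 253, 305 and 299 thinned cells that share library and depth. Ribosomal protein genes were lower in the upper Ltf class of every mouse, at 534 to 690 against 633 to 1036.

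The Mki67 share and the cycle list share were both highest at Day 9. The cycle list share was lowest at Day 6 after thinning and at Day 3 before it. Its intervals after thinning overlapped between all days. The share of thinned precursors with a Mki67 UMI was 22.2%, 22.1%, 27.7%, 35.4% and 23.1%, and 47.2%, 54.5%, 57.5%, 61.0% and 50.8% before thinning. The level was 0.948, 1.16, 1.43, 1.60 and 1.03. Day 9 was highest on each of these measures, and the Mki67 level at Day 9 was 1.69 times that of Day 0 (1.46 to 1.96). The G2/M list as a whole moved little, with 0, 1, 1 and 1 genes past a 1.5-fold increase among 31 at Days 3, 6, 9 and 12, and 0 on each day with TMM factors, where the Day 9 call of Mki67 ended.

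The precursors of each later day were then compared with those of Day 0. A gene entered when 10% or more of the precursors of either day held it and both days together had 50 UMIs, the log2 ratio used a pseudocount of 0.1 per 10000, and a ratio of at least 1.5-fold is called past the fold. At Day 3, 205 of 5075 genes (4.04%) were past the fold upward and 97 (1.91%) downward. At Day 6 it was 339 of 4891 (6.93%) and 110 (2.25%), at Day 9 it was 370 of 4759 (7.77%) and 102 (2.14%), and at Day 12 it was 46 of 4592 (1%) and 53 (1.15%). The Day 12 mouse thus lay nearest to Day 0. All 4 comparisons share the Day 0 mouse.

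The upward excess depends on the scale. The median log2 ratio of all entered genes was 0.17, 0.18, 0.18 and 0.04. Beside it, S100a8, the most abundant gene named here, had a level of 2425, 2030, 1962, 2001 and 2578 from Day 0 to Day 12. With TMM factors of 1.17, 1.20, 1.20 and 1.04, which centre the median gene, 57, 71, 99 and 28 genes were past the fold upward and 146, 186, 183 and 68 downward. Levels and counts below are against total UMIs, and the counts of a list with TMM factors follow where they differ.

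Immediate-early genes were the group that stood below Day 0 most often. AP-1 is a dimer of Fos and Jun family proteins that is induced within minutes of many stimuli. Of 7 AP-1 genes, 6, 6, 6 and 3 were past the fold downward at Days 3, 6, 9 and 12 and 0 upward, on either scale, with medians of −0.81, −0.86, −0.97 and −0.44. Fos had a level of 5.56 (5.30 to 5.83), 2.75 (2.58 to 2.92), 2.46 (2.28 to 2.65), 2.56 (2.38 to 2.75) and 3.64 (3.42 to 3.86). The Day 0 mouse was highest and the Day 12 mouse next, with no overlap of the intervals. Jun had a level of 6.18, 3.37, 3.22, 2.98 and 3.42, and Junb 1.99, 1.09, 1.14, 0.824 and 0.995. For these the Day 12 mouse stayed with Days 3, 6 and 9. Fosl2 was the only AP-1 gene above Day 0, at 0.186, 0.271, 0.255, 0.221 and 0.279, and it was not past the fold.

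Other immediate-early genes gave 6, 5, 7 and 7 of 11 past the fold downward, with medians of −0.69, −0.57, −0.91 and −0.64, and 9, 7, 9 and 7 with TMM factors. Klf2, a Krüppel-like factor, lay farthest from Day 0, with a level of 9.91 (9.56 to 10.3), 2.73 (2.56 to 2.90), 2.48 (2.29 to 2.67), 2.81 (2.62 to 3.01) and 4.94 (4.70 to 5.20). Its log2 ratios to Day 0 were −1.82, −1.96, −1.78 and −0.99. Dusp1, a phosphatase of MAP kinases, had a level of 3.57, 1.06, 1.33, 1.08 and 2.25, and Egr1 0.442, 0.122, 0.0756, 0.0987 and 0.233. Ier2 had a level of 5.08, 3.10, 3.39, 2.65 and 3.05. Gadd45a, a stress-response gene outside these lists, had 3.53, 0.914, 1.04, 0.807 and 2.34 and was among the largest downward differences at Days 3, 6 and 9.

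Day 0 was highest in most sets of barcodes outside the precursors as well. The 7 AP-1 genes summed to 20.3, 11.2, 10.6, 10.5 and 13.3 per 10000 UMIs in precursors from Day 0 to Day 12. They summed to 23.6, 11.1, 9.70, 10.6 and 15.1 in Elane/Ms4a3-high progenitors, 19.3, 12.9, 13.5, 12.2 and 11.2 in Ltf-high neutrophils and 59.9, 23.5, 28.3, 26.1 and 43.5 in Retnlg-high neutrophils. In B lineage barcodes the sum was 34.3, 7.50, 17.1, 16.2 and 19.95, and in free RNA, taken from barcodes with at most 100 UMIs, 44.6, 27.5, 31.6, 29.2 and 39.6. Day 0 was highest in each of these 6, while Day 12 was second highest in 5 and lowest in Ltf-high neutrophils. Without the Retnlg limit, the larger Ltf-high gate had sums of 21.6, 13.9, 15.9, 14.6 and 22.1. Day 12 and not Day 0 was then highest, so the order in Ltf-high neutrophils depends on that limit. With free RNA subtracted from the precursors, 5, 5, 5 and 3 of 6 AP-1 genes were past the fold downward at Days 3, 6, 9 and 12. Their medians were −0.86, −0.93, −0.91 and −0.55. The amount subtracted was an estimate from B lineage genes, and the part of free RNA was not tested in another way. In the lower and the upper Ltf class the precursors of Day 0 had sums of 21.2 and 18.7, and those of Day 3 of 10.0 and 11.4. At Day 3, 5 of 6 AP-1 genes were past the fold downward in precursors with an Ltf level under 50 (median −0.88) and 4 of 6 in those with 50 or more (median −0.66). When each library was split at its own median Ltf level, it was 5 of 6 in the lower part (median −1.05) and 3 of 6 in the upper (median −0.57).

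**Figure D4:**
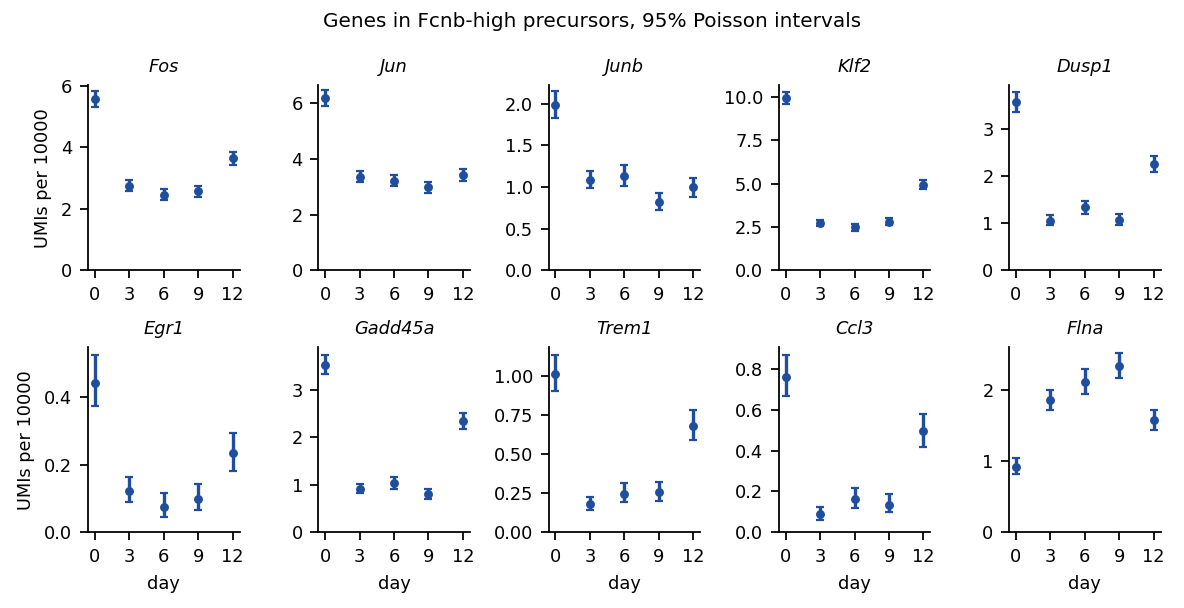
Levels of 10 genes in precursors by day (UMIs per 10000, linear axes from 0), 1 mouse per day, with exact 95% Poisson intervals for counting error. Flna is lowest at Day 0 and the other 9 genes are highest there, and Fos, Klf2, Dusp1, Egr1, Gadd45a, Trem1 and Ccl3 are nearer to Day 0 at Day 12 than at Days 3, 6 and 9.

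Inflammatory genes split. Of 8 that entered, 1, 2, 1 and 0 were past the fold upward and 3, 4, 3 and 0 downward at Days 3, 6, 9 and 12. With TMM factors it was 1, 1, 1 and 0 upward and 4, 4, 4 and 1 downward. The chemokine gene Ccl3 had a level of 0.762, 0.0903, 0.162, 0.136 and 0.496, and Trem1, a receptor that amplifies inflammatory signals and is part of the late neutrophil list, 1.02, 0.181, 0.248, 0.255 and 0.683. Both were lowest at Day 3 and came nearer to Day 0 at Day 12. Cd14 had a level of 0.839, 0.255, 0.277, 0.218 and 0.640. Ccl6, another chemokine gene, went the other way, at 0.580, 1.28, 1.53, 1.62 and 0.617. The Ccl6 level of free RNA was 6.47, 9.99, 9.94, 10.1 and 7.38, which moved in the same direction, and its part in the value was not tested.

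Genes past the fold in the same direction on all 4 later days numbered 16 upward (0.364%) and 17 downward (0.387%) of 4392 genes that entered all comparisons. With TMM factors, 7 were higher on all 4 days, namely Dock2, Flna, Gapt, Gpc1, Sorl1, Sort1 and Tgfbi, and 28 lower. Flna, which encodes the actin crosslinker filamin A, had a level of 0.923, 1.86, 2.11, 2.33 and 1.57. Gpc1, a heparan sulfate proteoglycan, had 0.125, 0.284, 0.306, 0.334 and 0.345, the largest upward difference at Day 12 (2.76-fold, 1.89 to 4.10). Sorl1, a sorting receptor, had 0.436, 0.853, 0.914, 0.898 and 0.762. Dock2, a Rac activator in leukocyte migration, had 0.160, 0.372, 0.410, 0.402 and 0.305, and Tgfbi 0.112, 0.343, 0.302, 0.391 and 0.240. Day 0 was the lowest mouse for each of these genes, which follows from the way they were chosen. The 17 lower genes were led by Klf2, Ctsl and Rhob and included Fos, Jun, Junb, Dusp1, Egr1 and Id1. Ctsl, cathepsin L, had a level of 0.340, 0.0956, 0.101, 0.0851 and 0.135. Id1, an inhibitor of basic helix-loop-helix factors, had 1.53, 0.885, 0.979, 0.912 and 0.785.

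Granule genes varied less than immediate-early genes, with the late members highest after Day 0. Of 15 secondary granule genes that entered, 1, 2, 2 and 0 were past the fold upward and 0 downward, and with TMM factors 0, 1, 1 and 0 upward and 0, 0, 1 and 0 downward. Ltf itself had a level of 48.7, 65.3, 65.5, 60.2 and 60.7, and was not past the fold. Mmp8 had a level of 0.525, 0.972, 1.18, 1.01 and 0.808. Cybb had 5.19, 7.47, 8.03, 9.16 and 6.97, past the fold at Days 6 and 9 against total UMIs and on no day with TMM factors. Of 4 tertiary granule genes, 2, 2, 2 and 1 were past the fold upward, and these were Mmp9, with 0.839, 1.5, 1.74, 1.61 and 1.38, and, not at Day 12, Itgb2, with 1.08, 1.74, 1.77, 1.91 and 1.43. With TMM factors the calls of Itgb2 ended on all days and that of Mmp9 at Day 3. Free RNA moved in the same direction, with a Mmp9 level of 2.17, 4.17, 4.72, 5.01 and 5.59 and a Mmp8 level of 2.25, 5.38, 5.43, 5.50 and 5.38, and its part in these values was not tested.

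Of the late neutrophil genes, 3, 6, 4 and 1 were past the fold upward and 1, 1, 2 and 0 downward among 12, 11, 11 and 12. With TMM factors 3, 2, 2 and 1 were upward and 2, 2, 2 and 1 downward. Retnlg, resistin-like gamma, had a level of 13.3, 18.2, 23.0, 21.7 and 23.2 in precursors, while in free RNA it had 78.3, 115, 104, 115 and 200. Gm5483, of the stefin A family, had 0.173, 0.757, 0.738, 0.786 and 0.286 and was among the 5 largest upward differences at Days 3, 6 and 9. Stefin A genes are near-identical, so reads may be split between copies. Of the retention and chemotaxis genes, 3, 6, 6 and 1 were past the fold upward and 0, 0, 1 and 0 downward, of 12, 12, 12 and 11. With TMM factors 1, 1, 0 and 0 were upward and 0, 1, 2 and 0 downward, so these counts give no direction that holds on both scales. Fpr2, whose calls all ended with TMM factors, had a level of 0.903, 1.62, 1.56, 1.57 and 1.43, and Selplg, the ligand of P-selectin, 0.279, 0.555, 0.604, 0.480 and 0.325.

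Histone transcripts moved in opposite directions. Hist1h2ap had a level of 2.73, 4.31, 5.66, 7.07 and 3.04, and Hist1h2ae of 2.43, 0.645, 0.644, 0.902 and 2.04. The histone cluster genes share sequence, so the split between them is uncertain. Ribosomal protein genes had medians of 0.29, 0.16, 0.25 and −0.11 against total UMIs and 0.07, −0.10, −0.01 and −0.16 with TMM factors, and 8, 2, 4 and 0 of 81 were past the fold upward, or 1, 1, 1 and 0 with TMM factors. S phase genes past the fold upward were 2, 0, 2 and 0 of 23, or 0, 0, 1 and 0 with TMM factors.

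**Figure D5:**
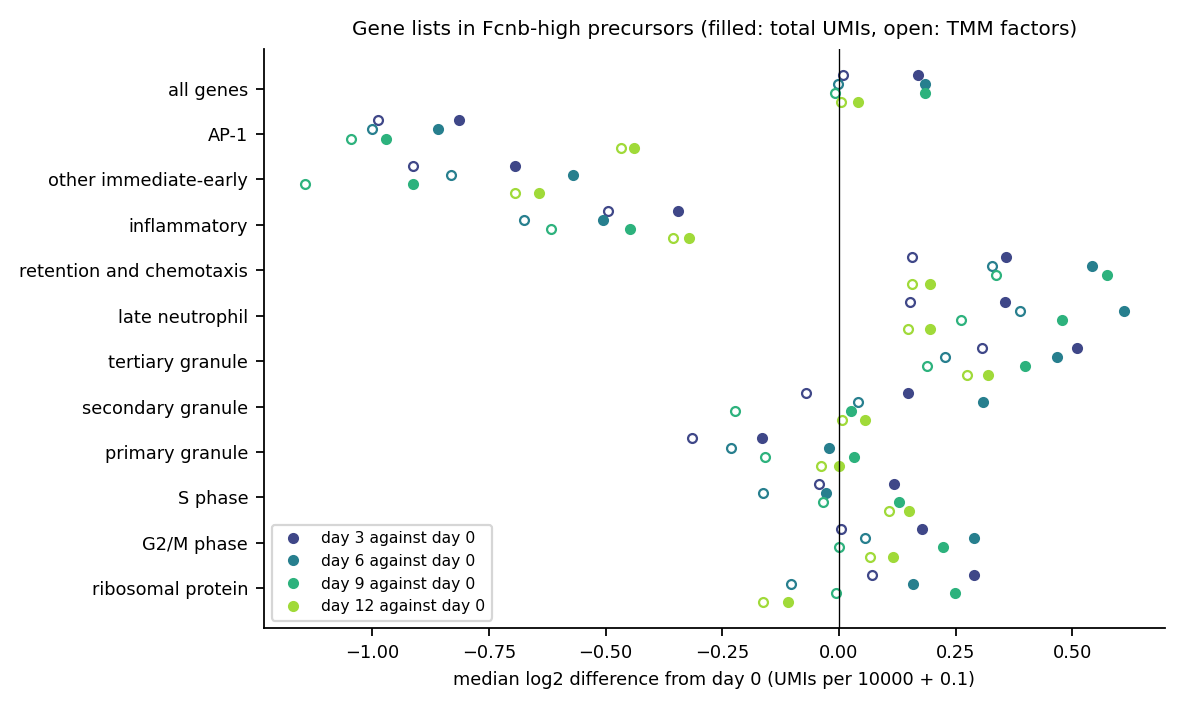
Median log2 ratio to Day 0 of all entered genes and of 11 gene lists in precursors at Days 3, 6, 9 and 12, with filled points against total UMIs, open points with TMM factors and days told apart by colour. The AP-1 and other immediate-early medians are the lowest of each day on both scales, and the retention and chemotaxis medians lie above 0 against total UMIs.

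Some of the largest day differences were in genes of other cell types. Igkc, an immunoglobulin light chain gene, had a level in precursors of 0.513, 0.529, 3.19, 1.69 and 0.197, and was among the 5 largest upward differences at Days 6 and 9 and the 5 largest downward ones at Day 12. In free RNA its level was 9.88, 8.11, 30.8, 20.2 and 4.07. Myl10, the largest upward difference at Day 3, had 0.00641, 0.468, 0.0072, 0.0306 and 0.00985 in precursors and 0.110, 1.98, 0.117, 0.248 and 0.118 in free RNA. Vpreb1, Vpreb3, Ighm, Iglc1, Igha and Hbb-bs were likewise among the largest upward differences of 1 day, and Cd74 and H2-Ab1 among the largest downward ones at Day 12. The B list of 6 genes summed to 0.730, 1.47, 1.47, 0.756 and 0.0887 in precursors and to 10.2, 7.91, 13.1, 9.41 and 2.04 in free RNA, and none of its genes was at 0. The share of free RNA in precursors, estimated from B lineage genes, was 5.15%, 7.92%, 6.01%, 6.48% and 4.36%. The basophil and mast cell list reached 1.09 at Day 3 and 0.00961 to 0.201 on other days.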

How the data were processed

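The deposited counts are raw UMI counts per gene and barcode that the authors made with Cell Ranger on mm10, unfiltered, not normalized and still holding the empty droplets. The libraries held 33425695 to 43554233 UMIs. Barcodes with at least 500 UMIs and at most 10% mitochondrial UMIs were kept, and the rule given in the report chose the precursors. Doublets were kept; Scrublet in scanpy 1.11.5 was run as an alternative. The rule, the members and the gene lists were chosen with earlier results of these data known.

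Levels are summed UMIs per 10000. Days were compared without a test, since each day is 1 mouse, by log2 ratios with a pseudocount of 0.1 and a fold of 1.5. Gates were compared in R 4.3.3 with the quasi-likelihood test of edgeR 4.0.16 on counts summed per mouse and gate, with TMM factors, filterByExpr, the mouse as a block and Benjamini-Hochberg adjusted p below 0.05. The mouse pairs the gates because the 4 sums of a day come from the same animal. SDs are over 5 mice taken on different days. Genes used by a gate and mitochondrial genes were left out of counts. Thinning drew 3000 UMIs per cell without replacement, and shallower cells were left out. Free RNA was the sum of barcodes with at most 100 UMIs. Itgam, whose symbol the annotation lists more than once, and Cebpd were not used.

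Named genes were those of the rule and markers, at most the 4 most abundant of each list and any list gene past the fold or called, the 5 largest increases and decreases of each day among genes with 100 UMIs over both days, up to 10 genes each way that were past the fold on all 4 later days, and the 10 largest differences each way between gates. Levels of other list genes are given where a statement turns on them. Promoters came from the RefSeq table for GRCm38.p6 and gene positions from the GENCODE annotation of GRCm38.

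Both steps were run on simulated data, and values are given for the day step only. Its simulated counts held counting error only and no difference between mice. In a simulated Day 3 comparison, 91% of 200 genes changed 2-fold and 99.5% of 200 genes changed 3-fold were past the fold, and 96.0% of intervals held the true ratio. Alternatives changed the UMI, mitochondrial and Fcnb limits, doublets, thinning, pseudocount, fold, scale, filter, free RNA, reference day, tool, block and mice.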

Additional observations from a re-analysis of the deposited data

How the results depend on the processing

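The share of precursors from Day 0 to Day 12 was 3.05%, 4.13%, 2.53%, 2.38% and 3.23% with an Fcnb minimum of 5. It was 6.49%, 7.89%, 5.21%, 5.53% and 6.68% with a minimum of 2. When the rule was applied after thinning it was 4.09%, 3.5%, 3.06%, 3.24% and 3.63%, with Day 0 and not Day 3 highest. The denominator there was only the barcodes with at least 3000 UMIs. A mitochondrial limit of 5% gave 4.83% at Day 6 and 4.99% at Day 9. Genes past the fold numbered 302, 449, 472 and 99 at Days 3, 6, 9 and 12. They were 27, 28, 32 and 5 with a pseudocount of 1, 971, 1128, 1182 and 442 with 0.01, and 45, 37, 52 and 10 with a fold of 2. TMM factors gave 257 at Day 6 and 282 at Day 9. With free RNA subtracted the numbers were 318, 493, 499 and 108. Precursors with no cycle UMI, which are few, gave 34, 93, 34 and 28. Against Day 12, 260 genes were past the fold at Day 6 and 204 at Day 9. The lower Ltf part of each library gave 700 at Day 3, 748 at Day 6 and 251 at Day 12, and the upper part 201 at Day 3 and 259 at Day 6. An Ltf level under 50 gave 745 at Day 3 and 195 at Day 12, and of 50 or more gave 281 at Day 6. AP-1 genes past the fold downward were 2, 3, 3 and 1 with a pseudocount of 1, 0, 1, 3 and 0 with a fold of 2, and 0 at Days 3, 6 and 9 against Day 12. The Mki67 share thinned to 2000 UMIs was 15.9%, 19.3%, 23.9% and 13% at Days 0, 6, 9 and 12. No paired analysis was possible between days because each day is 1 mouse and no test was made.

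Against Elane/Ms4a3-high progenitors 4623 genes were called, 2255 after thinning and 1938 in cells of 5000 to 10000 UMIs. Against Ltf-high neutrophils 884 were called, 420 after thinning, 4029 without the Retnlg limit and 2234 in cells of 5000 to 10000 UMIs. Leaving out each mouse gave 562 to 762, with 569 without the Day 6 mouse and 562 without the Day 9 mouse. Against Retnlg-high neutrophils 5942 were called and 3414 after thinning. Without the replicate block 3880, 659 and 5388 genes were called, within 1.5 times of the counts with it. DESeq2 called 4386, 823 and 5813. Of the named genes, Ebf1 against Retnlg-high neutrophils turned from lower to 0.46 higher (edgeR adjusted p = 0.20) when that gate was limited to at least 20 Retnlg UMIs and no B, T or monocyte UMI. The calls of Ear2 against Ltf-high neutrophils (−0.21 without the Retnlg limit) and of Cox6a2 (−0.61) ended. Where the text gives no value, the cause of a shift was not tested. These counts rest on 1 mouse per day, on gates that use raw UMIs and on cells of unequal depth.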

Other observations

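The heat shock list of the precursors was highest at Day 3, and mainly in the precursors with the least Camp and Ngp. Of 7 that entered, 3 were past the fold upward and 1 downward at Day 3, 0 and 1 at Days 6 and 9, and 0 and 0 at Day 12. Hspe1, the mitochondrial co-chaperonin, had a level of 0.256, 0.696, 0.378, 0.354 and 0.181 from Day 0 to Day 12, and Hspd1, its partner chaperonin, 0.170, 0.345, 0.227, 0.245 and 0.184. Hsp90ab1, a cytosolic chaperone, had 0.884, 1.78, 1.24, 1.15 and 0.874. Day 3 was the highest mouse for all 3 genes, and the call for 1 of them ended with TMM factors. Dnajb1, a co-chaperone of Hsp70, went the other way, with 0.785, 0.367, 0.363, 0.408 and 0.509. The heat shock list summed to 7.67, 10.4, 7.72, 7.97 and 6.74 in precursors, 36.4, 54.3, 33.8, 35.8 and 45.9 in B lineage barcodes and 23.0, 25.2, 20.9, 20.5 and 18.3 in free RNA. When the precursors of a mouse were divided into 3 classes by Camp and Ngp, the list summed to 15.1, 8.23 and 7.72 from the lowest to the highest class at Day 3 and to 9.05, 7.28 and 6.90 at Day 0. The lowest class of Day 3 also held sums of 2.91 for the B list and 2.90 for the basophil and mast cell list, whose part in the heat shock values was not tested.

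Monocyte genes were past the fold upward in 4 of 7, 2 of 7, 1 of 7 and 0 of 3 cases at Days 3, 6, 9 and 12, and in 3, 1, 1 and 0 with TMM factors. Fn1, fibronectin, had a level of 0.0993, 0.383, 0.252, 0.248 and 0.105, and Ccr2, a chemokine receptor of monocytes, 0.0929, 0.247, 0.166, 0.163 and 0.0887. The monocyte list in free RNA summed to 26.8, 36.4, 37.3, 35.0 and 31.5, and its part in the precursor values was not tested. Among endoplasmic reticulum genes Hspa5, the chaperone BiP, had a level of 2.05, 1.44, 1.34, 1.31 and 1.63. Of the interferon list only 5, 4, 3 and 3 of 21 genes entered, and 1, 1, 0 and 0 were past the fold, none of them with TMM factors.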
